A study of Mus musculus with 12 samples.

Results

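Caph2 mutant thymocytes of the CD71-negative class were set against their wild-type counterparts, with 3 arrays a side out of 12 in the series, and 8247 of 18138 gene symbols entered the test. The mutant cells came from mice labelled Caph2nes/nes, with the I15N substitution in Ncaph2, and the wild-type cells from Caph2+/+ mice. Both genotypes were of strain C57BL6/J, aged 8 to 12 weeks, with males and females mixed 50/50. The cells were CD4+CD8+ thymic T cells, sorted as negative for CD71 and low in forward scatter. The other arrays held CD71-positive double-positive cells of the same genotypes, also labelled as low in forward scatter. How the substitution arose and whether it acts in thymocytes alone are not stated in the labels, which do not say either whether arrays of a group are separate animals or pools. The p-values below therefore measure the spread between these arrays, which may be technical.

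Condensin II is a ring-shaped complex that folds and compacts chromosomes, and Ncaph2, also called Caph2, is the subunit that closes its ring. Double-positive thymocytes carry both CD4 and CD8 while they rearrange and test their T-cell receptor. CD71 is the transferrin receptor, which growing cells use to take up iron, so small CD71-negative double-positive cells are largely out of cycle. Interferons act through JAK kinases and the STAT and IRF9 proteins, which bind DNA at interferon-stimulated response elements and switch on antiviral and antigen-presentation genes. Replication-dependent histone genes are transcribed mainly in S phase to package new DNA, often from divergent pairs in clusters.

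In the CD71-negative mutant cells, 23 genes rose and 12 fell at an adjusted p under 0.05 (limma with Benjamini-Hochberg adjustment). That is 0.424% of the genes tested, with 0.279% higher and 0.146% lower. The largest called rises were mostly in interferon-stimulated genes, with smaller ones in genes of histone H2A and of MHC class I. No called gene fell by more than 1.85-fold. Values below are normalized log2 signals, on which symbols not detected on any array had a median of 5.40 and the highest value was 13.31, so a level near 5.40 is at background. Of the 35 called genes, 28 were detected on all 6 arrays.

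Promoters of some interferon-related genes are shown first, since genes of this kind carried most of the largest called rises. Usp18, Ifi27, Nlrc5 and Shfl had no promoter in the table. Ifit3, which is shown, was not called (difference 0.13, limma adjusted p = 0.0640). The sequences are RefSeq promoters of GRCm38.p6, from 250 bases before to 50 bases after the start, read 5′ to 3′ along the gene. The capitals mark the core of the interferon-stimulated response element, GAAA and GAAA with any 2 bases between, read as TTTC and TTTC with 2 bases between where it lies on the opposite strand. B2m lies at chr2:122147437-122147736 on the plus strand, Rsad2 at chr12:26456403-26456702 on the minus strand, Ifit3 at chr19:34583279-34583578 on the plus strand and Lgals3bp at chr11:118401910-118402209 on the minus strand.
B2m: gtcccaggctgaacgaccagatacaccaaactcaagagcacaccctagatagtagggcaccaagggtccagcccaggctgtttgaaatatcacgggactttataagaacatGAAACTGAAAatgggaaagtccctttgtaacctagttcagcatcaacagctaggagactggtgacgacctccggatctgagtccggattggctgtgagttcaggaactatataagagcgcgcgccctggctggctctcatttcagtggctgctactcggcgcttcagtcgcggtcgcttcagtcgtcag
Rsad2: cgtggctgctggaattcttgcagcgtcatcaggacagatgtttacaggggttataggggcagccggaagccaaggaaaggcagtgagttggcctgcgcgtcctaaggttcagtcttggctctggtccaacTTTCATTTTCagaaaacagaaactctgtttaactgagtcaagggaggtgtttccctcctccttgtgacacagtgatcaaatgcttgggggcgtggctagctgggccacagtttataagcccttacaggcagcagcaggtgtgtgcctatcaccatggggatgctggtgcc
Ifit3: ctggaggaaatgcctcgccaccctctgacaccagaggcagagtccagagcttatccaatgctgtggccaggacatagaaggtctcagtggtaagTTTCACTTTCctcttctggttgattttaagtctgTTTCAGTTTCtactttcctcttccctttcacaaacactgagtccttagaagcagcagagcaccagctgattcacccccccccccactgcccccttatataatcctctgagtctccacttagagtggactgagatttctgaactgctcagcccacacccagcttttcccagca
Lgals3bp: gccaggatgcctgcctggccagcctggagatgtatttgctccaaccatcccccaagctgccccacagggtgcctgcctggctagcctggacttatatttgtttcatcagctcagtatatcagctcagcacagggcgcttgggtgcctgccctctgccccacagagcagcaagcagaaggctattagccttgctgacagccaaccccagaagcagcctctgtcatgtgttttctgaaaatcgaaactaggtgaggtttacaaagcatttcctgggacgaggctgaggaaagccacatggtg
The B2m window holds 1 match, starting 139 bases before the start of the gene, and the Rsad2 window 1 match, 120 bases before it. The Ifit3 window holds 2 matches, at 156 and 122 bases before the start. No match is in the Lgals3bp window. Searched on both strands, the core was present in 3.44% of all 32851 promoters and in 3.99% of the 27025 genes with one. Of the 38 tested interferon-stimulated effector genes with a promoter in the table, 17 held the core (44.7%), Rsad2 being the only called one. The core was present at 4 of 14 MHC class I genes and at 1 of 41 replication-dependent histone genes. Among called genes with a promoter, 2 of the 12 higher and 1 of the 7 lower held it.

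The H2A promoters are shown because these genes rose in the CD71-negative cells and lie in the same cluster on chromosome 13. Capitals mark CCAAT, or ATTGG on the opposite strand, and TATAAA, or TTTATA on the opposite strand. The last base of CCAAT can also be the first of TATAAA, but no matches overlap in these windows. H2ac22, printed as Hist1h2an on the array, lies at chr13:21787199-21787498 on the minus strand. H2ac12, the array's Hist1h2ah, lies at chr13:22035594-22035893 on the minus strand, and H2ac23, the array's Hist1h2ao, at chr13:21810117-21810416 on the plus strand.
H2ac22: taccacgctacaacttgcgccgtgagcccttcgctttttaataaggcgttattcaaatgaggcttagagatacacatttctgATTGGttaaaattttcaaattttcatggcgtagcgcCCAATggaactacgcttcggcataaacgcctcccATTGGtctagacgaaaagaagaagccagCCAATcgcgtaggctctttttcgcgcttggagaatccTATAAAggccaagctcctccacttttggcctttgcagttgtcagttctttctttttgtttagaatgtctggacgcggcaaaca
H2ac12: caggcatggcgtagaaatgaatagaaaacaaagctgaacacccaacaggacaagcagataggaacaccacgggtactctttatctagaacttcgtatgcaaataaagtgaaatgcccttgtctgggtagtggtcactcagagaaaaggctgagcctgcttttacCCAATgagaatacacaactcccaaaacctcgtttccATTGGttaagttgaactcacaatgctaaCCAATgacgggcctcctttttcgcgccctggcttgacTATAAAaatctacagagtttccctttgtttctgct
H2ac23: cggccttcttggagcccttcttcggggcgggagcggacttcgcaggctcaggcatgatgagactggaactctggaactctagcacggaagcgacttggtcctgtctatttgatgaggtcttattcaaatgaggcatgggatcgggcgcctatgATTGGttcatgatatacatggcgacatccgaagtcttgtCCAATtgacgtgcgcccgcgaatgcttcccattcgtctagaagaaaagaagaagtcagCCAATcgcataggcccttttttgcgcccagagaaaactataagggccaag
The H2ac22 window holds 4 CCAAT matches and a TATAAA 33 bases before the start. H2ac12 and H2ac23 hold 3 CCAAT matches each, and H2ac12 a TATAAA after its annotated start. CCAAT was found at 34 of 41 replication-dependent histone genes, against 41.1% of all genes with a promoter. TATAAA was found at 25 of the 41, against 15.7% of all genes.

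The arrays were first checked against their labels. Ncaph2 RNA was 6.58, 6.34 and 6.34 on the mutant arrays and 6.69, 6.69 and 6.22 on the wild-type arrays, a difference of -0.11 ± 0.16 (SE; adjusted p = 0.898). A single amino-acid substitution need not alter the RNA level, so this value checks neither label. Cd4 differed by 0.02 ± 0.16, Cd8b1 by -0.26 ± 0.17 and Tfrc, which encodes CD71, by -0.10 ± 0.28, and limma called none of them. Mean raw signal was 136 to 182 on the mutant arrays and 95.1 to 179.6 on the wild-type arrays (two-sided exact permutation p = 0.5, where 0.1 is the smallest that 3 against 3 allows). The number of detected symbols was 6487 to 7400 in mutant and 5893 to 7261 in wild type (exact p = 0.6). The first principal component of the 6 arrays, with 43.4% of the variance, did not separate the genotypes, while the second, with 31.6%, did. With each array's mean signal as a covariate 29 genes were called, 24 of them among the 35.

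The gate was also checked for other cells. Of 19 myeloid markers 5 to 7 were detected on mutant arrays and 0 to 2 on wild-type arrays, and their summed linear level was 819 to 825 in mutant and 804 to 808 in wild type, ranges that did not overlap. S100a8, S100a9, Mpo and C1qa were detected on no CD71-negative array. Of 14 dendritic cell and MHC class II markers 5 to 6 were detected in mutant and 1 to 5 in wild type, with sums of 651 to 680 and 608 to 622; Itgax, Flt3, Xcr1, Clec9a and Zbtb46 were detected on none. Of 13 natural killer and innate-like markers 5 to 6 were detected in mutant and 0 to 4 in wild type, with sums of 690 to 878 and 619 to 701, while Eomes, Gzmb, Klrb1c, Klrk1 and Tbx21 were detected on none. Most of each sum was background, since most markers lay near 5.40. No tested marker of these lists was called by limma. The myeloid differences ran from -0.04 for Tyrobp to 0.21 for Lyz, at adjusted p-values of at least 0.90. Prf1 varied most among the natural killer markers, from 5.73 to 8.48 in mutant and 6.67 to 7.60 in wild type (0.10 ± 0.65). Nkg7 was 6.929, 5.605 and 5.540 in mutant and 5.518, 5.538 and 5.438 in wild type (0.53 ± 0.30). Like Nkg7, the tested markers Ccl5, Xcl1 and Fcer1g lay higher on every mutant array, while Klrd1 and Prf1 overlapped. Among class II markers H2-DMa (0.62 ± 0.17), H2-Ab1 and Cd74 also did, while H2-Aa, H2-DMb1, H2-Eb1 and Siglech overlapped. Mutant arrays were all higher for 7.53% of all genes.

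B-cell, erythroid, stromal and mature single-positive markers overlapped between genotypes in both counts and sums, with 6 to 7 of 11 mature T-cell markers detected in each genotype. The part of these markers in the interferon and class I results below was not tested.

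Interferon-stimulated effector genes, the antiviral products made in response to interferon, mostly lay higher in the mutant cells. Of 52 tested, 7 rose and none fell, against 0.279% of all genes that rose. Their median difference was 0.14, against -0.0007 for all genes tested, and 50 of the 52 lay above 0, against 49.4% of all genes. On 30 of the 52 every mutant array lay above every wild-type array, which was so for 7.53% of all genes, and on none was it the reverse, against 6.98% of all genes. At an unadjusted p under 0.05, 29 of the 52 were higher, against 4.91% of all genes. The difference cannot be divided into more cells of a responding kind and more RNA per cell, since each array is a bulk sample.

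Usp18, a feedback gene counted in this list, which removes the ubiquitin-like protein ISG15 and dampens interferon receptor signalling, was 6.91, 7.05 and 7.09 on the mutant arrays and 5.56, 5.58 and 5.57 on the wild-type arrays. All 3 mutant arrays were far above wild type, where the gene sat near background and was detected on 2 of 3 arrays. The difference was 1.45 ± 0.13, a 2.72-fold rise (limma, adjusted p = 0.00506). Rsad2, which encodes the antiviral enzyme viperin, was 6.28, 6.74 and 6.71 in the mutant and 5.46, 5.51 and 5.53 in wild type. Here too wild type lay near background, with detection on 2 of 3 arrays, and no arrays overlapped, with a difference of 1.08 ± 0.11 and an adjusted p of 0.00545. Lgals3bp, a secreted glycoprotein that binds galectin-3, was 7.95, 8.08 and 8.22 against 6.49, 6.83 and 6.49. Every mutant array was well above every wild-type array, and the gene rose 2.79-fold (1.48 ± 0.20; adjusted p = 0.0182).

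The symbols Ifi27 and D12Ertd647e both stand for genes of the Ifi27 family, interferon-inducible proteins of the mitochondrion and nuclear envelope. Which family member each symbol measures cannot be told without probe sequences, since Ifi27 is the current name of D12Ertd647e and an older name of Ifi27l2a. D12Ertd647e was 10.13, 10.19 and 10.37 in mutant and 8.63, 8.74 and 8.36 in wild type, the highest levels among these genes, and rose 3.14-fold (1.65 ± 0.21; adjusted p = 0.0158). Ifi27 was 6.88, 6.99 and 7.91 against 5.59, 5.66 and 5.55. The third mutant array stood above the other two, and all 3 lay above wild type, for a rise of 1.66 ± 0.26 (adjusted p = 0.0390).

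Shfl and Epsti1 completed the called effectors. Shfl, filed as A230050P20Rik, encodes an antiviral protein known in human cells for blocking ribosomal frameshifting, and was 7.13, 7.32 and 7.16 in mutant and 5.79, 5.96 and 6.50 in wild type. The third wild-type array was the closest to the mutant arrays, and the gene rose 2.18-fold (limma, adjusted p = 0.0390). Epsti1, an interferon-inducible gene, was 6.57, 6.60 and 6.56 against 5.85, 5.85 and 6.05. Its mutant arrays lay close together and above all of wild type (0.66 ± 0.06; adjusted p = 0.00506). The detection calls ran the other way, with Epsti1 called detected on 1 of 3 mutant and all 3 wild-type arrays.

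Several further effectors lay higher on every mutant array without passing the threshold. Mx2, an antiviral GTPase, and Ifit3, which takes part in sensing foreign RNA, differed by 0.14 and 0.13 at adjusted p-values of 0.0547 and 0.0640, and Oas2, which makes the activator of the antiviral nuclease RNase L, by 0.13 (0.0701). Both Oas1g and Irf7 were detected on all 3 mutant arrays and on no wild-type array, and both lay so near background that the difference was only at least 1.06-fold (adjusted p = 0.172 and 0.178). Among brighter members, Parp14, a mono-ADP-ribosyltransferase, differed by 0.50 ± 0.13 and the GTPase gene Gbp2 by 0.38 ± 0.09.

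Of the 20 genes for interferon receptors, kinases, STATs, IRFs and feedback that were tested, Usp18 alone passed the threshold, and 15 lay above 0. Among all genes tested 0.424% were called and 49.4% lay above 0. Irf9, the DNA-binding partner of STAT proteins, was 6.24, 6.21 and 6.68 in mutant and 5.60, 5.86 and 5.67 in wild type. The lowest mutant value exceeded the highest wild-type value, and the difference of 0.67 ± 0.12 lay just outside the threshold (adjusted p = 0.0569). Ifngr1, the ligand-binding chain of the interferon gamma receptor, differed by 0.59 ± 0.15 (adjusted p = 0.143). Stat2 differed by -0.0001, with overlapping arrays. No gene for an interferon, a nucleic acid sensor or a related protein was called among 12 tested, with a median difference of -0.0002. The RNA sensor gene Ddx58 lay higher on every mutant array (0.11 ± 0.03, limma adjusted p = 0.22). Ifnb1 and several other interferon genes were detected on too few arrays to be tested.

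**Figure D1:**
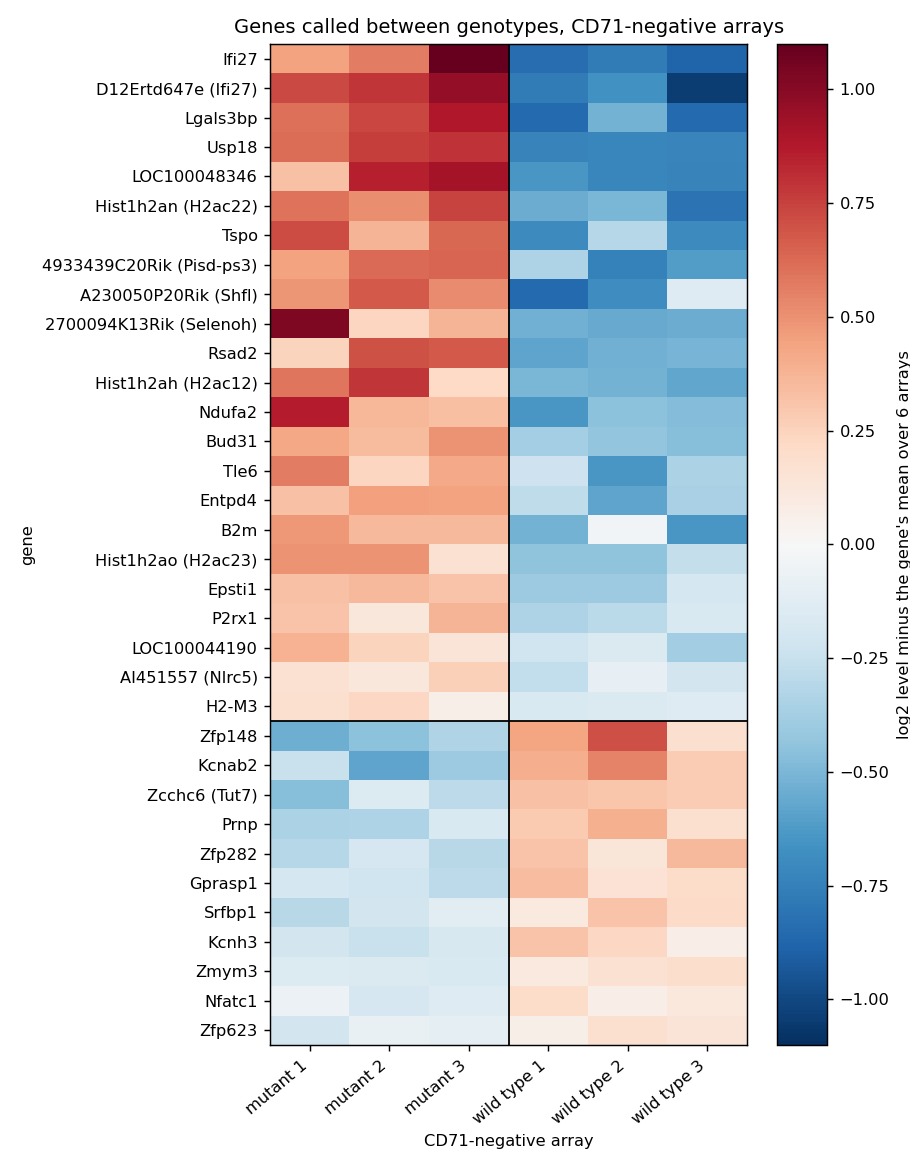
Heat map of the called genes reported here (down) on the 3 mutant and 3 wild-type CD71-negative arrays (across), coloured by the normalized log2 level minus the gene's mean over the 6 arrays. The higher genes are above the lower ones, and for each gene shown the arrays of the genotypes do not overlap.

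MHC class I genes, which build the molecules that show peptides from inside a cell to CD8 T cells, were the next group. Of 19 tested, 3 rose and none fell, 17 lay above 0, and on 10 the mutant arrays lay above all wild-type arrays, against 7.53% of all genes. Among all genes tested 0.279% rose, 0.146% fell and 49.4% lay above 0. B2m, the light chain common to class I molecules, was 10.95, 10.83 and 10.83 in mutant and 9.96, 10.44 and 9.83 in wild type. The second wild-type array was well above the other two and still below every mutant array, and B2m was called detected on all 3 mutant and 2 of 3 wild-type arrays. B2m rose 1.73-fold (0.79 ± 0.13; limma, adjusted p = 0.0463).

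Nlrc5, filed as AI451557, is the transactivator of class I genes and was 5.95 to 6.09 in mutant and 5.55 to 5.74 in wild type. H2-M3, a class I-like molecule that presents N-formylated peptides, was 6.17, 6.22 and 6.06 in mutant and 5.83, 5.84 and 5.86 in wild type. Both sat low on the scale with tight arrays that did not overlap, and rose by 0.37 ± 0.05 and 0.31 ± 0.04 (adjusted p = 0.0163 for each). The largest class I difference missed the threshold. H2-T10, a non-classical class I gene, was 8.53, 7.86 and 7.01 against 6.07, 5.93 and 6.38, with widely spread mutant arrays and a difference of 1.67 ± 0.32 (adjusted p = 0.0692).

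Psmb9, an immunoproteasome subunit that alters which peptides are cut for class I, differed by 0.77 ± 0.15 (adjusted p = 0.0692), and Psmb10, another such subunit, by 0.66 ± 0.22. The third one, Psmb8, differed by 0.01 ± 0.12, and the peptide transporter genes Tap1 and Tap2 by 0.01 ± 0.04 and 0.51 ± 0.24. Class I genes form a family of close copies and the table gives no probe identifiers, so a symbol's signal may include that of a close copy.

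**Figure D2:**
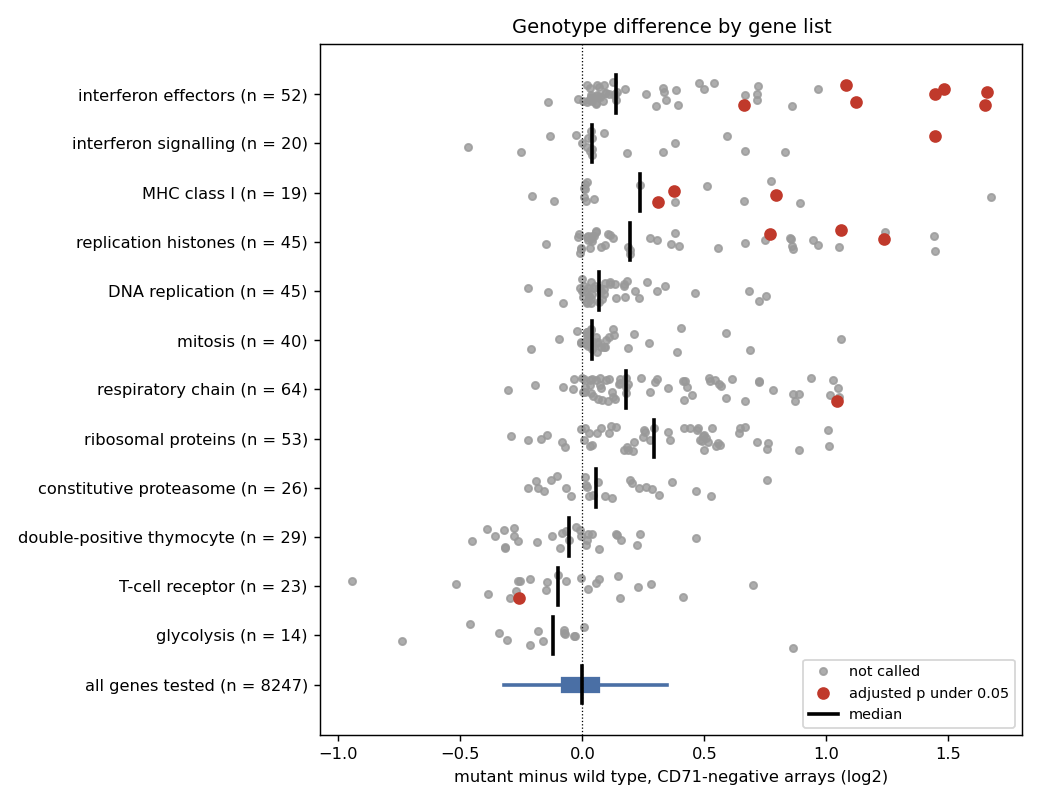
Differences (mutant minus wild type, log2, CD71-negative) of each tested gene in 12 lists and the summary over all genes, as points with the list medians. For all genes the thin bar spans the 5th to 95th percentile, -0.32 to 0.35, and the thick bar the 25th to 75th, -0.05 to 0.04.

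Replication-dependent histone genes were also higher, most of all those of H2A. Of 45 tested, 3 rose and none fell, 39 lay above 0 and 27 had every mutant array above every wild-type array, with a median difference of 0.20. Over all genes tested 0.279% rose, 49.4% lay above 0 and 7.53% had mutant arrays all higher. All 3 genes that rose encode H2A. Among the 13 H2A genes all lay above 0, 10 without overlap, with a median of 0.86. H2B genes had a median of 0.19 over 11, H3 genes 0.47 over 8, H4 genes 0.06 over 10 and H1 genes 0.04 over 3, and none of these 4 families had a called member. H2A copies are nearly identical in sequence, so these symbols may share probe signal and are not independent measurements.

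H2ac22 (Hist1h2an) was 10.05, 9.96 and 10.19 in mutant and 8.90, 8.95 and 8.63 in wild type, a 2.36-fold rise (limma, adjusted p = 0.0163). H2ac12 (Hist1h2ah) was 10.54, 10.74 and 10.17 against 9.45, 9.44 and 9.38 and rose 2.09-fold. H2ac23 (Hist1h2ao), the brightest of them, was 13.03, 13.03 and 12.70 against 12.09, 12.09 and 12.27 and rose 1.71-fold. For each of the 3 genes every mutant array was clearly above every wild-type array. H2ac11 (Hist1h2ag) had the largest H2A difference, 1.44 ± 0.25, at an adjusted p of 0.0539. Hist2h2ac on another chromosome differed by 0.75 ± 0.13 (0.0543). H1f2 (Hist1h1c), a linker histone, differed by 1.45 ± 0.49 with a wide error (adjusted p = 0.297).

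**Figure D3:**
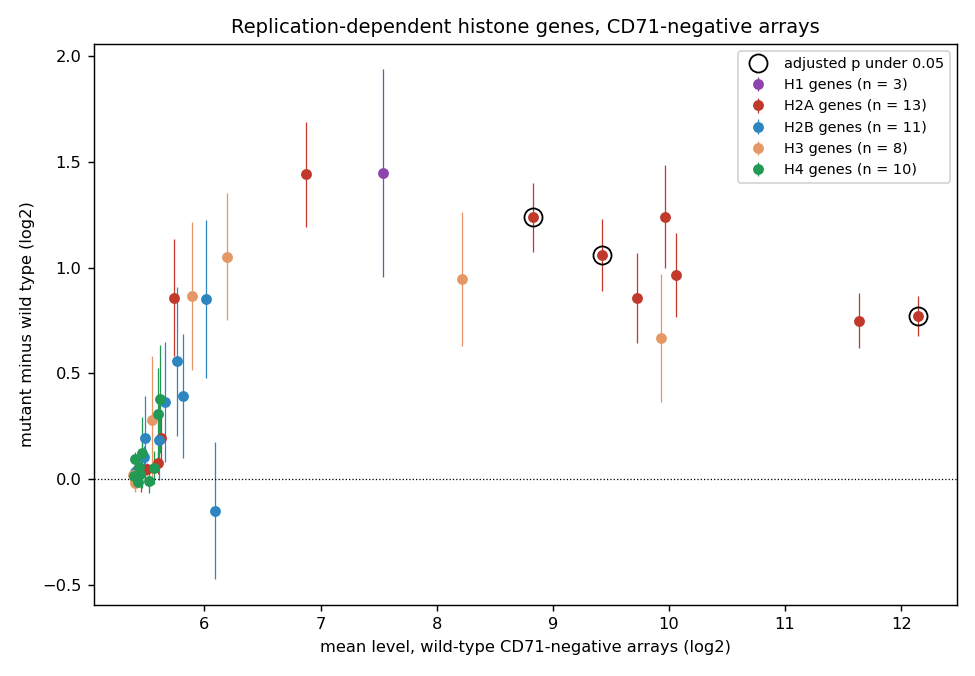
Differences ± SE of histone genes (mutant minus wild type, log2, CD71-negative) against the mean wild-type level, coloured by histone family. H2A genes lie between 0.03 and 1.44, H4 genes between -0.02 and 0.38.

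The same H2A genes were high in the CD71-positive cells. H2ac12 (Hist1h2ah) was 12.12, 11.46 and 11.73 in wild-type CD71-positive cells, above the CD71-negative cells of either genotype given above. H2ac22 (Hist1h2an) was 10.94, 10.68 and 10.98 there. The mutant CD71-negative values thus lay between those of wild-type CD71-positive and wild-type CD71-negative cells for both genes. These comparisons use the same wild-type CD71-negative arrays, so only the values are set side by side.

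Other genes of the cell cycle leaned upward but none was called. Of 45 DNA replication genes 39 lay above 0, with a median of 0.07, and 17 had mutant arrays all higher, against 7.53% of all genes. Rfc2, a clamp loader subunit, differed by 0.46 ± 0.08 (adjusted p = 0.0660) and the helicase subunit gene Mcm5 by 0.73 ± 0.20 (0.197). Of 40 mitosis genes 35 lay above 0, with a median of 0.04, and 21 had mutant arrays all higher. Cenpa, the centromeric histone H3, differed by 1.06 ± 0.22 (0.0887), and Top2a, which untangles sister DNA, by 0.69 ± 0.27 (0.383). In CD71-positive cells the median of the mitosis genes was -0.22.

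Condensin subunits themselves showed little difference. None of the 6 tested was called, and the values ran from -0.11 for Ncaph2 to 0.23 for Ncapd3, another condensin II subunit. Of 42 DNA damage and repair genes none was called, with a median of 0.004. None of 27 p53 target genes was called, with a median of 0.06. Bax, which opens the mitochondrial outer membrane in apoptosis, differed by 0.70 ± 0.30 and Bbc3, which encodes PUMA, by 0.67 ± 0.22. Without each CD71-negative array in turn, 8 to 11 of the 27 had mutant arrays all higher and 2 to 4 all lower. Among all 8247 genes these counts were 834 to 1360 and 802 to 1287. Called genes made up 0.424% of all genes tested.

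Genes of mitochondria and translation leaned upward as well. Of 64 nuclear-encoded respiratory chain subunit genes 58 lay above 0 and 21 had mutant arrays all higher, against 49.4% and 7.53% of all genes, with a median of 0.18. The 1 called member compares with 0.279% of all genes called higher. It was Ndufa2, a complex I subunit, at 9.13, 8.63 and 8.59 in mutant and 7.62, 7.81 and 7.78 in wild type. Its first mutant array was the highest, all 3 were above wild type, and it rose 2.06-fold (adjusted p = 0.0390). Atp5j2, an ATP synthase subunit, lay just outside the threshold at 0.41 ± 0.07 (0.0539). Of 53 ribosomal protein genes 46 lay above 0, with a median of 0.29, and none was called. That median was 0.17 without the first and 0.47 without the third mutant CD71-negative array. Rps27l differed by 1.01 ± 0.20 (0.0692).

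The remaining genes that rose were in none of the lists above, though the group of a symbol that matched no annotated gene cannot be told. Tspo, a protein of the outer mitochondrial membrane, was 7.82, 7.47 and 7.74 in mutant and 6.40, 6.79 and 6.40 in wild type and rose 2.22-fold. Selenoh, filed as 2700094K13Rik, a nuclear selenoprotein, was 9.27, 8.48 and 8.62 against 7.72, 7.69 and 7.71. The first mutant array stood above the other two for Selenoh, while wild type was tight. Pisd-ps3, a pseudogene filed as 4933439C20Rik, rose 2.20-fold (adjusted p = 0.00506).

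Entpd4, a nucleotide-hydrolysing enzyme of the Golgi and lysosome, was 7.73, 7.86 and 7.85 in mutant and 7.13, 6.83 and 7.05 in wild type, a rise of 0.81 ± 0.09. Bud31, a component of the spliceosome, rose by 0.85 ± 0.12, Tle6, a Groucho-family corepressor, by 0.81 ± 0.10, and P2rx1, an ATP-gated ion channel, by 0.54 ± 0.08. All 4 genes had mutant arrays wholly above wild type. The symbol LOC100048346, which matched no annotated gene, rose 2.63-fold, with 6.63, 7.17 and 7.23 against 5.67, 5.59 and 5.58.

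Among the 12 genes that fell, Zfp148, a zinc finger transcription factor, showed the largest difference. It was 6.45, 6.54 and 6.66 in mutant and 7.43, 7.70 and 7.17 in wild type. Every mutant array was below every wild-type array, and the gene fell 1.85-fold (-0.88 ± 0.12; limma, adjusted p = 0.0212). Kcnab2, a beta subunit of voltage-gated potassium channels, was 8.87, 8.54 and 8.71 against 9.52, 9.66 and 9.39 and was 1.76-fold lower. Tut7, filed as Zcchc6, which adds uridines to RNA ends, was 8.70, 9.02 and 8.88 against 9.49, 9.48 and 9.45. Wild-type arrays of Tut7 lay close together, and mutant arrays were all below them (-0.61 ± 0.08).

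Prnp, which encodes the prion protein, was 6.05, 6.06 and 6.23 in mutant and 6.69, 6.79 and 6.58 in wild type and fell 1.49-fold (adjusted p = 0.0112). Nfatc1, a transcription factor that calcineurin activates after T-cell receptor signals, was 5.69 to 5.82 in mutant and 5.95 to 6.08 in wild type, a low-level gene with a difference of -0.26 ± 0.04 (adjusted p = 0.0390). It was the single call among 23 genes of the T-cell receptor complex and its proximal signalling, whose median was -0.10. Over all genes tested 0.424% were called, with 0.146% lower. Nfatc3, another member of its family, differed by -0.94 ± 0.24 (0.153), and the exchange factor gene Vav1 by -0.52 ± 0.12 (0.139).

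The zinc finger genes Zfp282, Zfp623 and Zmym3 fell by 0.53, 0.25 and 0.31 on the log2 scale. Gprasp1, which sorts receptors to lysosomes, fell by 0.47, Srfbp1, a partner of the transcription factor SRF, by 0.42 and the potassium channel gene Kcnh3 by 0.41. All 6 genes had wild-type arrays wholly above mutant arrays.

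The 10 genes nearest to the threshold on its far side had adjusted p-values of 0.054 to 0.066, and 8 of them were higher in mutant. Besides those given above they were Cish, a feedback inhibitor of cytokine signals (0.15), the phosphatase gene Ilkap (0.38), the ubiquitin ligase gene Ttc3 (-0.43) and Chtop, filed as 2500003M10Rik, an RNA export factor (-0.39).

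Position on the chromosome was checked because a homozygous mutation is inherited with its neighbours. Ncaph2 lies on chromosome 15, and 3 of the 35 called genes, Tspo, Kcnh3 and Zfp623, lie within 20 Mb of it. In that window 234 genes were tested, with a median difference of -0.0038, and these 3 were the calls, against 0.424% called among all genes. In CD71-positive cells Tspo, Kcnh3 and Zfp623 differed by -0.06, -0.06 and -0.02 and were not called. Among other genes of the window, Sun2 (filed as Unc84b) and Endou (filed as Pp11r) were called there, at -0.48 and -0.54. Their differences in CD71-negative cells were -0.34 and -0.11. The part of chromosomal position in these differences was not tested.

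No gene that marks double-positive thymocytes was called. Of 29 tested, 11 lay above 0, with a median of -0.06, which turned to 0.02 with array weights. Runx1 and Ets1, transcription factors of the T lineage, differed by -0.32 ± 0.07 (0.0903) and -0.45 ± 0.11 (0.130), and Satb1, a chromatin organiser of thymocytes, by -0.39 ± 0.13 (0.297). None of 17 positive selection genes was called, with Egr1, an early target of the T-cell receptor, at -1.12 ± 0.43 (0.373). None of 14 glycolysis genes was called and 2 lay above 0, with a median of -0.12. Pdk1 differed by 0.86 ± 0.20 (limma adjusted p = 0.119), with every mutant array higher, while the arrays of the other members overlapped. No gene was called among 13 cohesin genes, 25 G1 control genes, 23 genes of the BCL2 family and death receptors, 14 Notch and double-negative stage genes, 18 heat shock genes, 16 cholesterol synthesis genes and 26 constitutive proteasome genes. With 0.424% called among all genes tested, the lack of a call in lists of these sizes says little about them.

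Out of 18138 symbols, some were detected on all 3 arrays of one genotype and on none of the other, 55 in the mutant only and 23 in wild type only. Erdr1 was the largest of these at 5.43, 5.43 and 5.41 in mutant, where it was not detected, against 7.02, 7.75 and 6.17 in wild type. It was at least 2.94-fold lower, with a wide wild-type spread and an adjusted p of 0.102. In CD71-positive cells Erdr1 was again detected on no mutant array and on all 3 wild-type arrays. Ccl5, a chemokine, was at least 1.36-fold higher (6.45, 5.59 and 5.56 against 5.45, 5.40 and 5.38; adjusted p = 0.459), and Serpina3g, an interferon-inducible protease inhibitor, at least 1.23-fold higher. None of the genes detected in one genotype alone was called by limma. Detection did not always follow level, and some genes detected in mutant only lay lower there, with differences down to -0.07.

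The called genes were then followed into the CD71-positive arrays, which are not part of the CD71-negative contrast but shared its normalization, its detection filter and its estimate of the spread. Of the 35 genes, 30 differed with the same sign there, 18 had arrays that did not overlap in the same direction and 7 were called in the same direction. Called genes made up 0.424% of all genes tested in CD71-positive cells, and non-overlapping arrays 7.25% higher and 7.35% lower. The 23 higher genes had a median difference of 1.06 in CD71-negative and 0.25 in CD71-positive cells, and the 12 lower genes -0.45 and -0.06.

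Lgals3bp differed by 1.36 in CD71-positive cells (adjusted p = 0.0336), Usp18 by 1.37 (0.00666), D12Ertd647e by 1.40 (0.0336) and Entpd4 by 0.85 (0.00717). All 4 also had mutant arrays wholly above wild type there. LOC100048346 rose there as well, and Prnp fell (-0.43; 0.0375). Rsad2, with 0.58 (0.0680), B2m, with 0.62 (0.115), and Epsti1, with 0.09, were not called in CD71-positive cells. The H2A differences there were 0.03 ± 0.16 for H2ac22 (Hist1h2an) and -0.06 ± 0.17 for H2ac12 (Hist1h2ah), within their error. H2ac23 (Hist1h2ao) sat at or next to the highest value of the scale, 13.31, on every CD71-positive array, so no genotype difference could be read for it there.

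**Figure D4:**
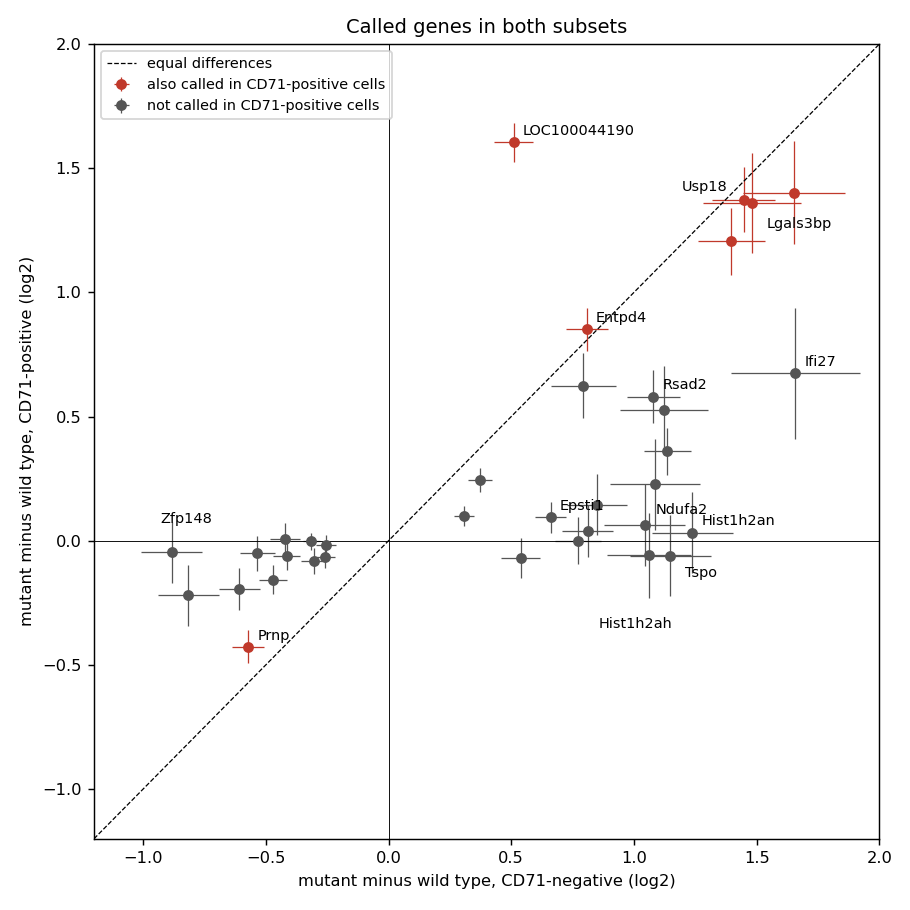
Genotype difference ± SE (mutant minus wild type, log2) of the 35 called genes in CD71-negative cells (across) against CD71-positive cells (up). Usp18, Lgals3bp and D12Ertd647e lie near the line of equal differences, Ifi27, Shfl, Rsad2 and Epsti1 below it, and the H2A genes near 0 on the CD71-positive axis.

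Whether a genotype difference itself differed between the classes was tested as an interaction. It passed for 1 gene of 8247, or 0.0121%, the unmatched symbol LOC100044190. LOC100044190 was 7.01, 6.87 and 6.77 in mutant and 6.41, 6.47 and 6.25 in wild-type CD71-negative cells, and 7.96, 7.91 and 7.94 in mutant and 6.33, 6.21 and 6.45 in wild-type CD71-positive cells. The rise was larger in CD71-positive cells, by 1.09 (adjusted p = 0.0325). No gene passed without the second mutant, the first or the second wild-type CD71-negative array, the first or the third mutant or the first wild-type CD71-positive array. The H2A differences are not shown to be particular to CD71-negative cells by this test, at 1.20 for H2ac22 (Hist1h2an; adjusted p = 0.239) and 1.12 for H2ac12 (Hist1h2ah; 0.329).

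**Figure D5:**
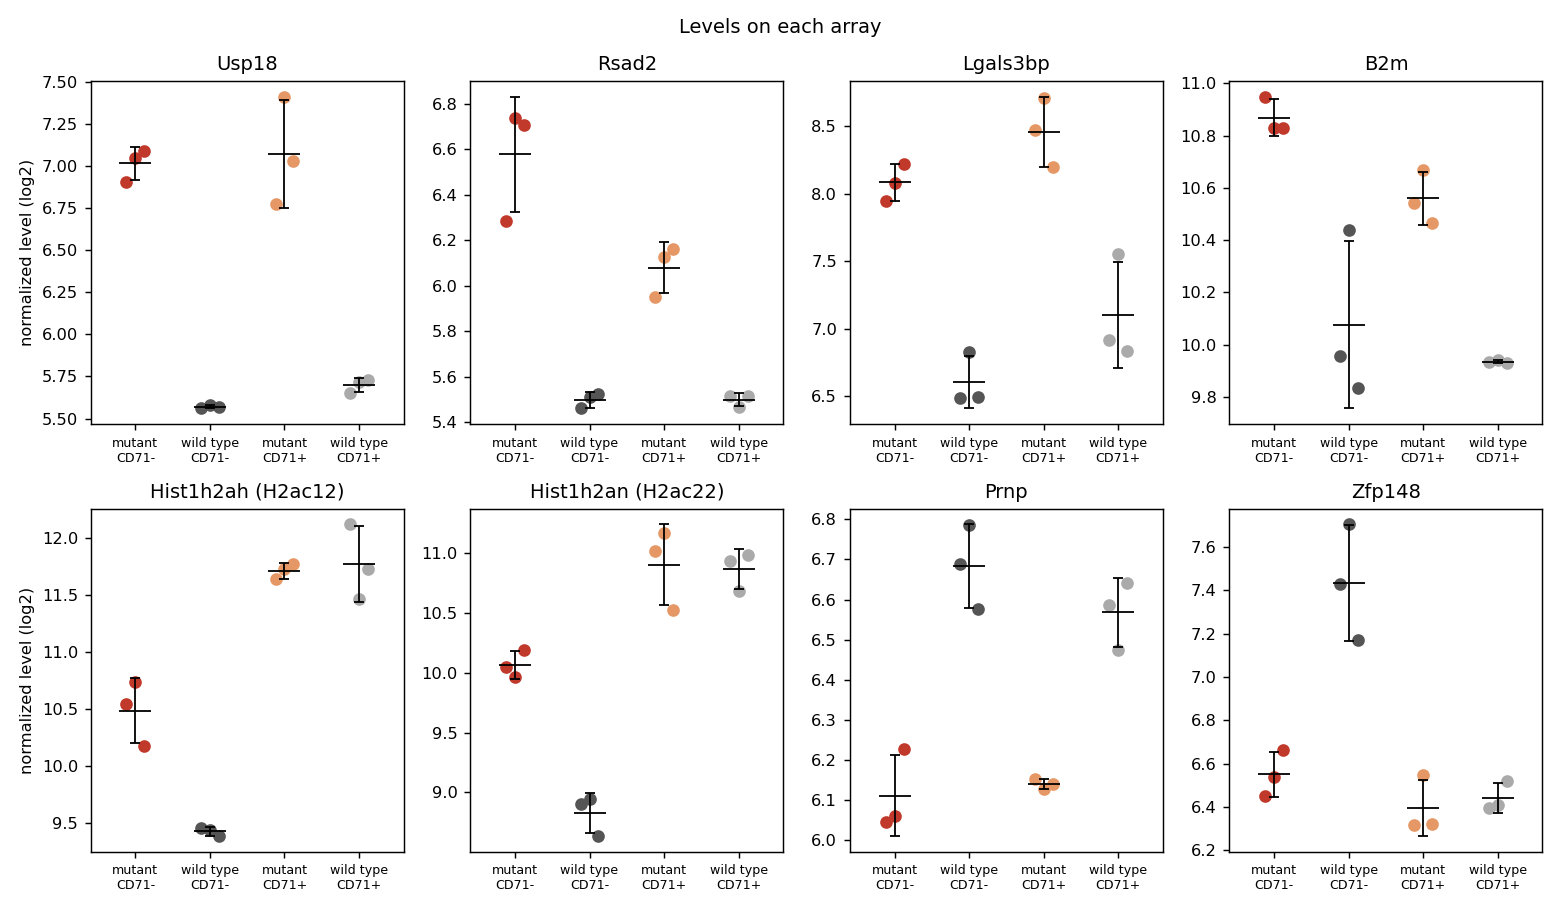
Normalized log2 levels of 8 genes on all 12 arrays (points) in the 4 groups, with the mean ± SD as bars. Mutant arrays of Usp18, Rsad2 and Lgals3bp lie above wild type in both classes, and mutant CD71-negative arrays of Hist1h2ah and Hist1h2an lie between the wild-type CD71-negative and CD71-positive arrays.

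The count of called genes depends on the arrays used. It was 14 without the first wild-type, 23 without the second mutant and 121 without the third wild-type CD71-negative array, and 21 without the second mutant CD71-positive array. Of the called effectors 7 became 3 without the first wild-type array and 4 without the second mutant array, and the 3 histone and 3 class I genes became 0 without the first wild-type array. The class I median of 0.24 became 0.11 without the first mutant and 0.06 without the third wild-type CD71-negative array, and the histone median of 0.20 became 0.12 without the first mutant array. The histone count became 5 without the third mutant or the third wild-type CD71-negative array, or the first wild-type CD71-positive array. Usp18, Rsad2, Epsti1, Entpd4, Tle6, Prnp, Gprasp1, Zmym3, LOC100048346 and Pisd-ps3 (4933439C20Rik) passed whichever of the 12 arrays was left out. Fewer fits called B2m (2 of the 12), H2ac12 (Hist1h2ah), Shfl and Selenoh (3 each), Ifi27, Ndufa2 and Nfatc1 (4 each) and Zfp623 (0), whose adjusted p-values stayed under 0.155 in each fit.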

How the data were processed

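RNA of sorted mouse thymocytes, 80 ng a sample, was amplified and biotin-labelled, per the labels' protocols, and measured on 12 one-colour arrays in 4 groups of 3. The deposited table holds linear signal intensities, not normalized, with a detection p-value for each gene symbol and array, per the file headers; no source used here says how probes were combined into symbols. A second deposited table holds processed intensities (RMA is named in the submitters' processing notes) and served as an alternative. Of 18138 symbols 14307 matched the annotation directly, 2905 through a unique synonym and 926 not at all.

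Signals were background-corrected from the detection p-values with an offset of 16, quantile-normalized and put on the log2 scale with neqc in limma 3.58.1 (R 4.3.3). Symbols with a detection p-value under 0.05 on at least 3 of 12 arrays were tested. The 4 group means were fitted over the 12 arrays with lmFit and eBayes, and p-values were adjusted by the Benjamini-Hochberg method over all genes tested. The fit was tested on simulated data. Errors are SE of the fit, and the number of arrays limits the precision. For "at least" folds, the dim group was set on each array at the gene's own signal or the lowest signal of any detected gene, whichever was greater.

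The genes named are the identity genes, every called gene, the 10 with the smallest p beyond the threshold, the largest of those detected in one genotype alone, and members of 41 gene lists: up to 6 by p, any called, and any tested member of the interferon, class I, histone and condensin lists. Some genes that this rule takes are not reported here. Genes, lists and tests were chosen with earlier results of these data known. Alternatives changed the background, offset, normalization, filter, variance model, arrays used, replicate block or brightness covariate, or left out each array in turn.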

Additional observations from a re-analysis of the deposited data

Results flagged for a closer look

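The genotype difference of LOC100044190, a symbol that matched no annotated gene, differed between the cell classes when that difference was itself tested. It was 0.51 ± 0.08 in CD71-negative cells and 1.60 ± 0.08 in CD71-positive cells, with a CD71-negative minus CD71-positive difference of -1.09 (limma, adjusted p = 0.0325). All 3 mutant arrays lay above all 3 wild-type arrays in both classes.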

How the results depend on the processing

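None of the 35 genes called in CD71-negative cells changed sign under the 11 alternatives or with any of the 12 arrays left out. The count moved from 35 to 8 with cyclic loess, 55 with the authors' processed values, 20 with no filter, 2 with only the CD71-negative arrays, 53 with a trended robust variance and 461 with array weights, which ran from 0.408 to 4.991; of those calls 7, 30, 20, 2, 28 and 35 were among the 35. Higher and lower calls, 23 and 12, became 6 and 2 with loess, 45 and 7 with the background taken from signals alone, 37 and 18 with the authors' values, 13 and 7 with no filter, 2 and 0 with only the CD71-negative arrays, 39 and 14 with trended variance, and 228 and 233 with array weights.

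With 1 array left out the counts ran from 14 to 121 in all, 9 to 52 higher and 5 to 69 lower. Effectors called higher ran from 3 to 8 and under other settings from 1 to 23, class I genes from 0 to 4 and 0 to 5, and histone genes from 0 to 5 and 0 to 10. Counts of members whose mutant arrays all lay higher were 31 to 38 of the effectors, 10 to 11 of the class I genes and 28 to 32 of the histone genes without each CD71-negative array, against 834 to 1360 of all 8247 genes, an alternative chosen after seeing the data. Median differences under the other settings ran from 0.08 to 0.46 for effectors, 0.05 to 0.38 for class I, 0.12 to 0.61 for histone, 0.15 to 0.29 for respiratory chain and 0.11 to 0.43 for ribosomal genes, the last with 0 to 7 calls.

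In CD71-positive cells the 35 calls became 6 with loess, 22 with the authors' values, 16 with no filter, 207 with array weights and 23 with the replicate block, and 14 to 60 with 1 array left out. The 1 interaction call became 0 with loess, the background from signals alone, the authors' values, no filter, trended variance, the replicate block and mean signal as covariate, 45 with array weights, and 0 to 5 with 1 array left out.

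The labels state no pairing of arrays by number. Deviations of same-numbered arrays from their group means correlated at -0.405 to 0.586, and those of differently numbered arrays at -0.61 to 0.496. Whether the numbers mark a pairing cannot be told from these values. A replicate block gave 39 calls in CD71-negative cells, 27 of them among the 35. The cause of these shifts was not tested. Signal over background limits low genes such as Nfatc1 and H2-M3, whose levels lie close to that of undetected symbols.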
